A study of Danio rerio with 8 samples.

Results

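The genes described here were high in primordial germ cells and low in somatic cells of the zebrafish gastrula, and were later lower in the germ cells and higher in the soma. They were chosen by a rule on CPM, a gene's estimated read count scaled to a common library total. Both PGC libraries at 7 hours post fertilisation (hpf) had to hold at least 10 CPM, and the lower of them at least 3 times the higher soma library of that stage. The mean in PGCs at 24 hpf had to be at most 50% of that at 7 hpf. The mean in soma at 24 hpf had to reach 7 CPM and 3 times the soma mean at 7 hpf, and the PGC mean at 24 hpf had to stay under 4 times the soma mean. Of 34381 genes, 42 met the rule. Because the rule used the expression of all 8 libraries, the levels and differences below describe the genes that were chosen and carry no test of their own.

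RNA was sequenced from 8 libraries, 2 for each of PGCs and somatic cells at 7 hpf (gastrula) and 24 hpf (pharyngula). The cells were sorted by fluorescence-activated cell sorting (FACS) from embryos of a transgenic zebrafish line, kop-EGFP-F-nos3’UTR, in which PGCs carry a green fluorescent protein, and whose full name in the study adds a cry-DsRed cassette, so every group shares the transgene. The soma groups are mixtures of many embryonic cell types, and the labels give no treatment. The study describes its RNA-seq replicates as biologically independent, while the labels number them and name no clutch or sort, so p-values measure the spread between these libraries.

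PGCs are the embryonic precursors of eggs and sperm. In zebrafish they are set apart early by inherited germ plasm, a cytoplasm rich in maternal RNAs and proteins, and then migrate through the embryo towards the future gonad. Much of the RNA of an early embryo is maternal and is removed as the embryo's own genome becomes active, and germ plasm is known to protect some maternal transcripts in PGCs. Cell shape change and migration depend on actin and myosin, while microtubules, endocytosis and organelle division serve nearly every cell type. The roles given below are those known for the proteins of the same name in mammals.

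The libraries held between 6997561 and 21073240 estimated counts. Between 8.19% and 11.2% of the counts fell on the 20 most abundant genes at 7 hpf, and between 35.7% and 44.4% at 24 hpf, so a CPM at 24 hpf is diluted more than one at 7 hpf. All 42 members passed the filter on low counts, as did 19885 genes in all. In soma at 7 hpf, where the members were lowest, 33 of 42 had at least 10 counts in both libraries. A total of 3 counts corresponded to between 0.142 and 0.429 CPM, which covers counting error only.

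The members were expressed at moderate levels in early PGCs. Their median level was 31.6 CPM in PGCs at 7 hpf, with a range from 16.5 for rbbp8l to 78.1 for FGD4. In soma of the same stage the median was 2.99 CPM, and the highest member, ERBB3, had a mean of 8.25 CPM. At 24 hpf the medians of both cell types lay between those values, at 10.8 CPM in PGCs and 13.7 CPM in soma. The summed level of the 42 genes was 1521 and 1466 CPM in the PGC libraries at 7 hpf, against 136 and 146 CPM in soma. At 24 hpf it was 479 and 497 CPM in PGCs and 715 and 548 CPM in soma, so the level in soma rose towards that of PGCs without reaching the early PGC level. No member had a mean in soma at 24 hpf above its mean in PGCs at 7 hpf, and the median member stood at 41.3% of it, between 24.0% for sh3gl1a and 77.7% for ces2b. In PGCs at 24 hpf the median member stood at 33.9% of its early level.

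**Figure D1:**
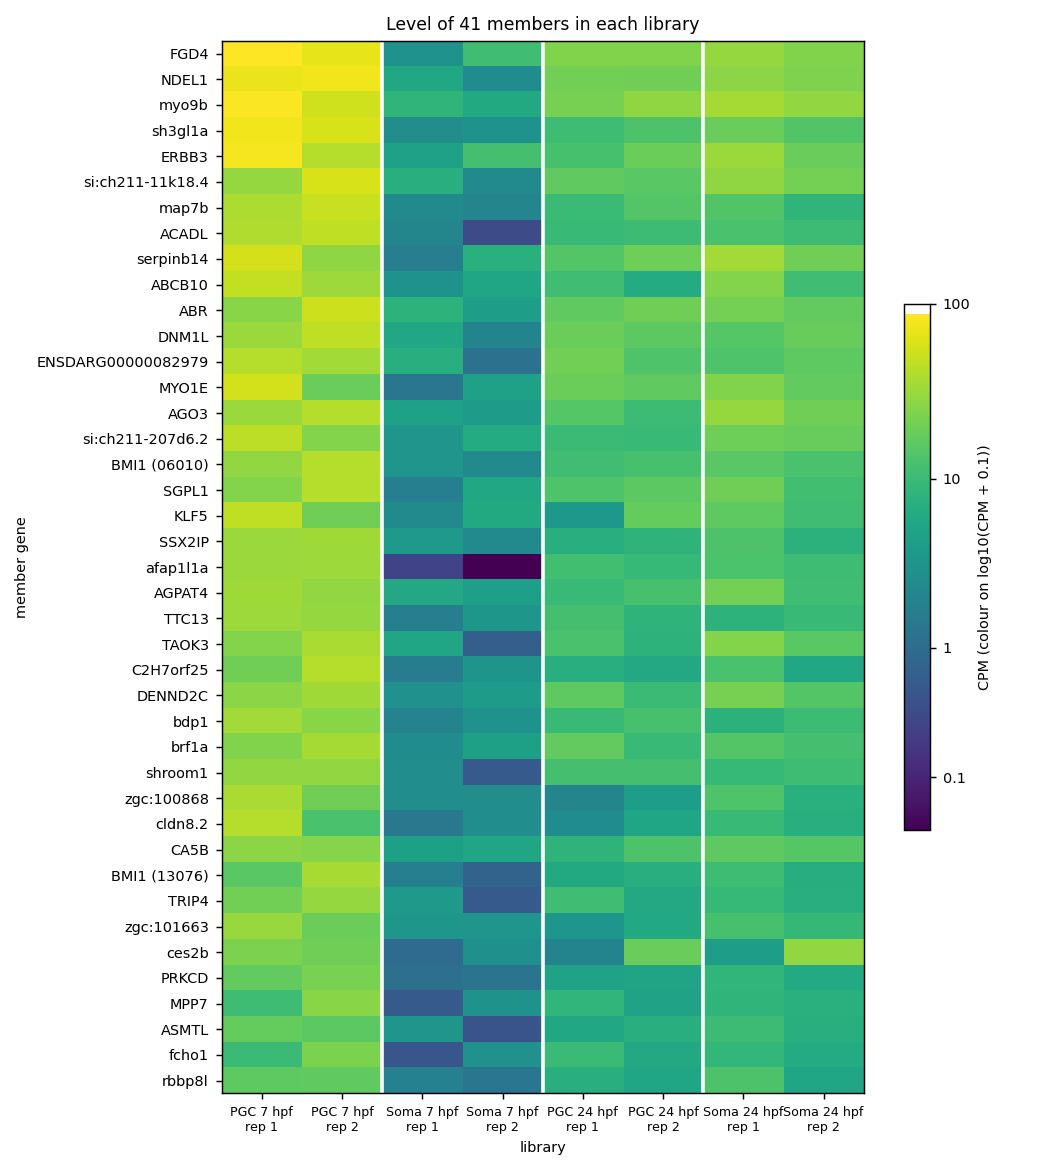
Level of 41 of the 42 members (vertical axis, ordered by mean in PGCs at 7 hpf) in each of the 8 libraries (horizontal axis), with colour giving CPM on a log10(CPM + 0.1) scale and white lines between the groups. The PGC columns at 7 hpf are the brightest, with a median near 31.6 CPM, the soma columns of that stage are the darkest, with a median of 2.99 CPM, and the columns at 24 hpf lie between them.

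Most members did not overlap between the groups that the rule set apart. Both PGC libraries at 7 hpf were above both at 24 hpf in 41 of 42 members, the exception being MYO1E, and in 42% of all 19885 genes tested. Both soma libraries at 24 hpf were above both at 7 hpf in 42 of 42 members and in 40.3% of all genes. Both early PGC libraries were above both soma libraries at 24 hpf in 39 of 42 members, all but MYO1E, serpinb14 and ces2b, and in 41.8% of all genes. Both PGC libraries at 24 hpf were above both soma libraries at 7 hpf in 37 of 42, against 44.3% of all genes. The exceptions were zgc:100868, KLF5, zgc:101663, cldn8.2 and ces2b. The rule fixed most of these orders, so nothing is read from the shares.

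Among the members, 6 are actin-binding proteins, myosins or regulators of the actin cytoskeleton. Their median level was 38.3 CPM in PGCs at 7 hpf, 4.52 in soma at 7 hpf, 18.2 in PGCs at 24 hpf and 19.9 in soma at 24 hpf. FGD4 (ENSDARG00000101471), a regulator that binds actin filaments, had the highest early PGC mean. FGD4 stood at 87.9 and 68.3 CPM in the PGC libraries at 7 hpf and at 3.10 and 11.0 CPM in soma. At 24 hpf FGD4 stood at 24.1 and 24.2 CPM in PGCs and at 30.4 and 24.5 CPM in soma. The early groups were far apart, while at 24 hpf both soma values lay just above the PGC values. The unconventional myosin myo9b (ENSDARG00000077410) had the highest mean of all members in soma at 24 hpf. Its levels in PGCs were 83.6 and 54.3 CPM at 7 hpf and 21.9 and 28.4 CPM at 24 hpf. In soma, myo9b had 8.35 and 6.04 CPM at 7 hpf and 35.6 and 29.3 CPM at 24 hpf. Thus both late soma libraries were above both late PGC libraries for myo9b, by a margin smaller than the gap between its PGC replicates.

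The actin filament-associated gene afap1l1a (ENSDARG00000089162) was the member closest to absence in early soma. It had 4 and 0 counts in the soma libraries at 7 hpf, or 0.296 and 0 CPM, against 31.6 and 32.4 CPM in PGCs. At 24 hpf the levels of afap1l1a were 11.3 and 9.32 CPM in PGCs and 12.7 and 10.5 CPM in soma. Its late values overlapped between the cell types, and no fold change is given against an early soma group that rests on 4 counts. For MYO1E (ENSDARG00000036179), a class I myosin, the PGC libraries at 7 hpf differed widely, at 55.5 and 18.4 CPM, and the second of them lay within the range of 16.8 and 19.0 CPM seen in PGCs at 24 hpf. MYO1E stood at 1.33 and 4.70 CPM in early soma and at 24.1 and 17.1 CPM in late soma. ABR, a signalling protein of the actin cytoskeleton, had a mean of 39.7 CPM in PGCs at 7 hpf, 6.03 CPM in soma at 7 hpf, 18.5 CPM in PGCs at 24 hpf and 19.3 CPM in soma at 24 hpf. shroom1 (ENSDARG00000094181), of a family of actin-binding proteins, was the only member with both late PGC libraries (11.9 and 11.8 CPM) above both late soma libraries (9.40 and 10.6 CPM).

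A further 4 members act on microtubules, the centrosome or cell polarity, with a median of 38.3 CPM in early PGCs and 2.70 CPM in early soma. NDEL1 (ENSDARG00000104225), a partner of the motor dynein, had close replicates in 3 of the 4 groups. The PGC libraries held 71.5 and 75.3 CPM of NDEL1 at 7 hpf and 20.7 and 20.05 CPM at 24 hpf. The soma libraries held 5.76 and 2.59 CPM at 7 hpf, where the replicates were further apart, and 26.7 and 23.4 CPM at 24 hpf. NDEL1 was therefore highest in early PGCs, with late soma just above late PGCs and no overlap between any of the 4 groups. map7b, a microtubule-associated protein that recruits kinesin, had a mean of 43.9 CPM in early PGCs and 2.24 CPM in early soma, and 12.1 and 11.2 CPM in late PGCs and late soma. SSX2IP, a centrosomal protein, had means of 32.6, 3.17, 7.50 and 10.4 CPM in the same order of groups. MPP7, a polarity scaffold, was among the lowest members in late soma, at a mean of 7.79 CPM.

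Membrane traffic and organelles accounted for 5 members. The endophilin gene sh3gl1a (ENSDARG00000067958), which bends membrane during endocytosis, combined a high early level with a steep fall in PGCs. The PGC libraries held 76.6 and 58.3 CPM of sh3gl1a at 7 hpf and 10.7 and 13.0 CPM at 24 hpf, so its late PGC mean was 17.6% of the early mean. In soma sh3gl1a stood at 2.73 and 3.17 CPM at 7 hpf and at 18.6 and 13.7 CPM at 24 hpf. All 4 groups were apart from each other for sh3gl1a, with late soma above late PGCs. DNM1L, the GTPase that divides mitochondria, had a mean of 38.9 CPM in early PGCs and 3.85 CPM in early soma, and then 17.5 and 16.3 CPM in late PGCs and late soma. fcho1, which starts clathrin-coated pits, and DENND2C, an activator of Rab GTPases, had early PGC means of 16.5 and 30.2 CPM.

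Transcription, chromatin and small RNA pathways held 7 members, at a median of 30.2 CPM in early PGCs and 2.86 CPM in early soma. The names table gave the symbol BMI1, a subunit of the Polycomb repressive complex that marks histone H2A, to a pair of gene IDs in the list. ENSDARG00000006010 stood at 29.1 and 40.7 CPM in early PGCs, 3.33 and 2.398 CPM in early soma, 10.9 and 11.98 CPM in late PGCs and 15.4 and 12.3 CPM in late soma. ENSDARG00000013076 stood at 15.4 and 36.2 CPM in early PGCs, 1.77 and 0.767 CPM in early soma, 6.03 and 7.05 CPM in late PGCs and 10.6 and 6.69 CPM in late soma. Both BMI1 genes were thus higher in early PGCs than in any other group, with wider replicate gaps for ENSDARG00000013076. Both of the RNA polymerase III initiation factor genes brf1a and bdp1 were members, with means of 29.9 and 30.2 CPM in early PGCs, 3.60 and 2.58 CPM in early soma and 13.1 and 9.08 CPM in late soma.

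AGO3 (ENSDARG00000063079), an Argonaute protein that binds microRNAs, came nearer in late soma to its early PGC level than most members, though not as near as ces2b. The PGC libraries held 31.6 and 40.7 CPM of AGO3 at 7 hpf and 14.5 and 10.3 CPM at 24 hpf. In soma AGO3 went from 4.803 and 4.03 CPM to 30.1 and 19.9 CPM. Its late soma mean was 69.1% of its early PGC mean and 2.01 times its late PGC mean, with no overlap between the late libraries. KLF5 (ENSDARG00000015506), a zinc-finger factor of epithelia, lay nearest the limit that the rule set on the early difference, its lower PGC library being 3.33 times the higher soma library. KLF5 had 46.5 and 20.1 CPM in early PGCs and 3.65 and 17.4 CPM in late PGCs, so its replicates were far apart at both stages. TRIP4, a transcriptional coactivator, had means of 25.1 CPM in early PGCs, 2.21 CPM in early soma, and 8.43 and 8.17 CPM in late PGCs and late soma.

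Of 3 signalling members, each had a late soma mean at least 1.48 times its late PGC mean. ERBB3 (ENSDARG00000006202), a receptor for neuregulins, stood at 80.7 and 41.6 CPM in early PGCs and at 4.803 and 11.7 CPM in early soma. At 24 hpf ERBB3 had 12.1 and 19.2 CPM in PGCs and 31.3 and 18.6 CPM in soma, so the late groups overlapped. TAOK3, a kinase upstream of the stress-activated MAP kinases, had means of 31.0 CPM in early PGCs, 2.96 CPM in early soma, 10.1 CPM in late PGCs and 20.1 CPM in late soma, and its late libraries did not overlap. PRKCD, a protein kinase C, was lower, at 19.6 CPM in early PGCs and 7.43 CPM in late soma.

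Metabolic enzymes and transporters made up 6 members, with a median of 32.3 CPM in early PGCs and 15.9 CPM in late soma. ACADL, a mitochondrial enzyme of fatty acid oxidation, stood at 39.6 and 45.4 CPM in early PGCs, 2.14 and 0.384 CPM in early soma, 9.63 and 10.4 CPM in late PGCs and 12.4 and 10.5 CPM in late soma. ABCB10, a transporter of the mitochondrial inner membrane, had means of 39.9, 4.29, 8.62 and 17.8 CPM in the same order, and its late soma mean was 2.07 times its late PGC mean. For ACADL the late cell types were close, and for ABCB10 both late soma libraries were above both late PGC libraries. The carboxylesterase gene ces2b (ENSDARG00000101726) followed the replicate number rather than the cell type at 24 hpf. Its levels were 2.04 and 18.7 CPM in PGCs and 4.35 and 29.0 CPM in soma, against 23.1 and 19.9 CPM in early PGCs and 0.961 and 2.88 CPM in early soma. Thus the fall of ces2b in PGCs rested on replicate 1, and most of its rise in soma on replicate 2. SGPL1, which degrades sphingosine 1-phosphate, AGPAT4, which makes phosphatidic acid, and CA5B, a mitochondrial carbonic anhydrase, had late soma means between 15.5 and 16.0 CPM.

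The claudin gene cldn8.2 (ENSDARG00000040628) and the serine protease inhibitor gene serpinb14 (ENSDARG00000091801) are of families best known from epithelia. Early PGCs held 41.8 and 12.6 CPM of cldn8.2, and early soma held 1.40 and 2.69 CPM. At 24 hpf cldn8.2 stood at 2.61 and 5.46 CPM in PGCs and 9.53 and 7.05 CPM in soma, so that soma was above PGCs without overlap. The levels of serpinb14 in the same order of groups were 56.1 and 28.2, 1.70 and 7.39, 14.1 and 19.4, and 34.2 and 20.1 CPM. Its second early PGC library was below its first late soma library. serpinb14 was also the only member with fractional counts, in 4 of the 8 libraries, so some of its reads were shared with other genes and its values are less certain. The remaining 9 members are given no role here. Among these, zgc:100868 (ENSDARG00000004748) fell furthest in PGCs, from 36.8 and 20.1 CPM to 2.09 and 4.40 CPM, or 11.4% of the early mean. In soma zgc:100868 rose from 2.66 and 2.78 CPM to 13.4 and 7.26 CPM, and its late soma mean was 3.18 times its late PGC mean, the highest ratio of the 42. Similarly, zgc:101663 (ENSDARG00000037852) went from 31.1 and 19.0 CPM to 3.46 and 6.04 CPM in PGCs and from 3.47 and 3.45 CPM to 12.3 and 9.07 CPM in soma. For both of these genes the late PGC levels overlapped those of early soma, as they also did for KLF5, cldn8.2 and ces2b. The gene si:ch211-11k18.4 (ENSDARG00000087869) stood at 30.3 and 58.7 CPM in early PGCs, 7.02 and 2.49 CPM in early soma, 16.5 and 15.5 CPM in late PGCs and 28.3 and 21.3 CPM in late soma. The others, si:ch211-207d6.2, C2H7orf25, ENSDARG00000082979, rbbp8l, TTC13 and ASMTL, had early PGC means between 16.5 and 37.7 CPM and late soma means between 8.65 and 18.9 CPM.

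**Figure D2:**
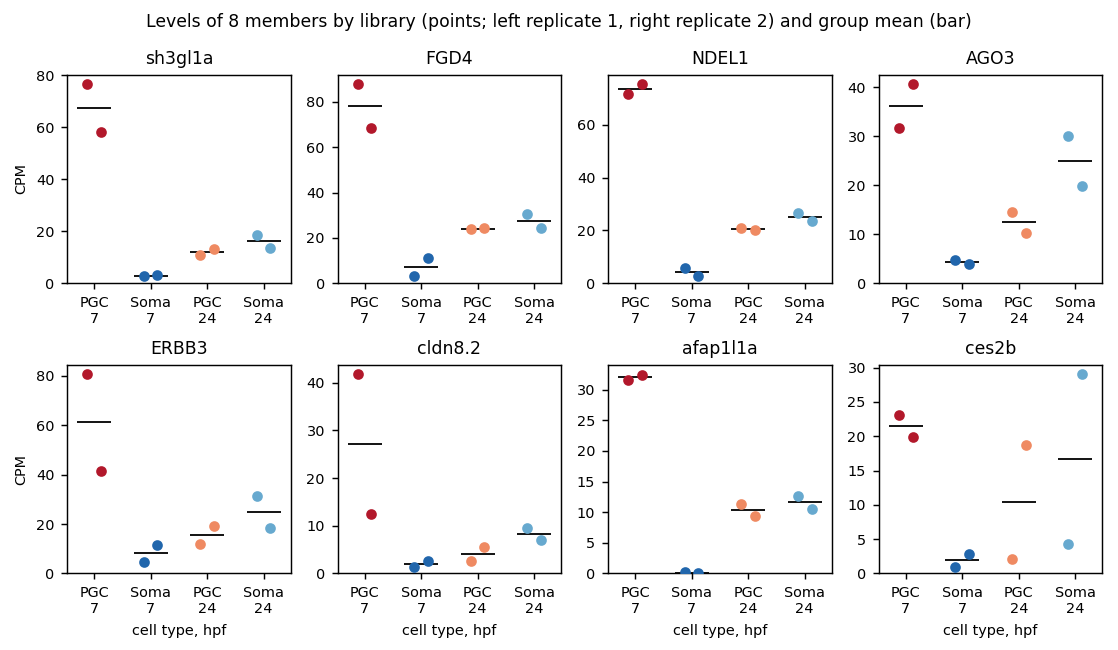
CPM (vertical axis) of 8 members in each library by cell type and stage (horizontal axis), with points for the 2 replicates and a bar for the group mean. NDEL1 in PGCs shows close replicates (71.5 and 75.3 CPM at 7 hpf), cldn8.2 and ERBB3 show wide gaps between the early PGC libraries (41.8 against 12.6 CPM for cldn8.2), and ces2b is high in replicate 2 of both late groups.

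Levels can be compared between members only per transcript length. In the deposited TPM values, in which counts are divided by effective length, the median was 5.29 in early PGCs, from 1.83 for rbbp8l to 18.2 for sh3gl1a. The next highest TPM levels in early PGCs were 13.7 for si:ch211-11k18.4, 12.5 for ACADL and 11.3 for both DNM1L and FGD4, whereas the long transcript of myo9b brought it to 4.25. In late soma the median was 2.97 TPM, from 1.08 for MPP7 to 10.7 for si:ch211-11k18.4.

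At 24 hpf the members' levels were close between the cell types. The median log2 ratio of soma over PGCs was 0.38 for them and 0.00 over 19403 genes. A median over all genes gives where the ratios were centred, and not how far apart single genes were. The mean was higher in soma than in PGCs in 32 of 42 members, and the ratio of the means had a median of 1.31 and reached 3.18. With TPM the mean was higher in soma in 41 of 42 members, at a median log2 ratio of 0.73, against 0.31 over 19392 genes. In CPM the soma mean was at least 2 times the PGC mean in 5 members, and the reverse held for 0. Shares of all genes were not computed for these counts. Both soma libraries were above both PGC libraries in 18 members, against 13.3% of all genes tested. The opposite order, found in 19.1% of all genes, held for 1 member, shroom1. Because the rule bounded this ratio on the PGC side, left out genes low in late soma and set a ceiling on late PGCs, nothing is read from the excess towards soma. In bulk samples, fewer cells of a type and less RNA per cell cannot be told apart.

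**Figure D3:**
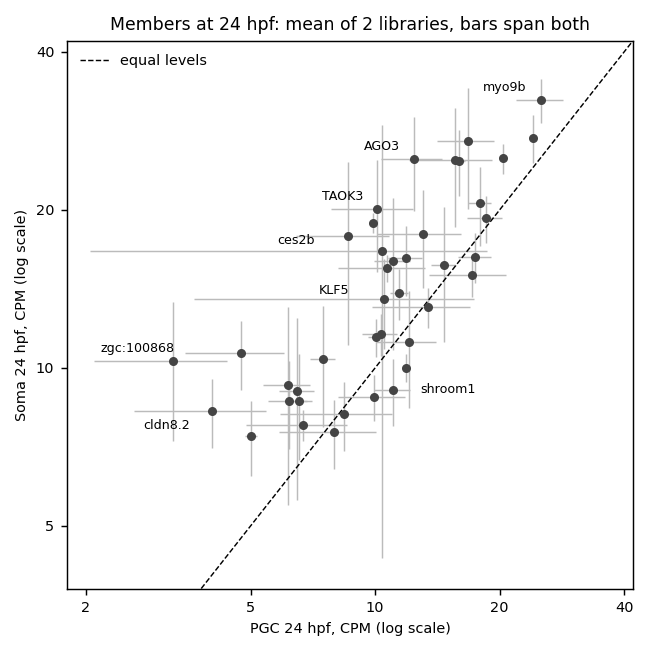
Mean CPM of 41 of the 42 members in PGCs (horizontal axis, log scale) and in soma (vertical axis, log scale) at 24 hpf, with bars spanning the 2 libraries and a dashed line at equal levels. Of the points, 32 lie above the line, and the widest bars belong to ces2b, at 2.04 and 18.7 CPM in PGCs.

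The size of the changes depended on how libraries were scaled. On the CPM scale the median gene of all those tested fell by 0.55 on the log2 scale from 7 to 24 hpf in PGCs, and the members fell by a median of 1.56. With TMM scaling, which sets the bulk of genes to a common level, the median of all genes rose by 0.15 and that of the members fell by 0.88. Relative to the median gene, the members' change in PGCs was -1.01 with CPM, -1.03 with TMM scaling, -1.02 without the 20 most abundant genes of each library in its total, and -0.88 with TPM. In soma the members' rise relative to the median gene was 2.095 with CPM and 2.11 with TMM scaling. The median level in PGCs at 24 hpf was 33.9% of the early level by CPM but 54.3% with TMM scaling, and 12 of the 42 members met the rule on the TMM scale. With TMM scaling 42 of 42 members still had a lower mean in late than in early PGCs, yet the libraries were apart in 32 of them, against 29.7% of all genes. On that scale 3 members had a late soma mean above their early PGC mean, and 22 of 42 had both early PGC libraries above both late soma libraries, against 30.4% of all genes.

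**Figure D4:**
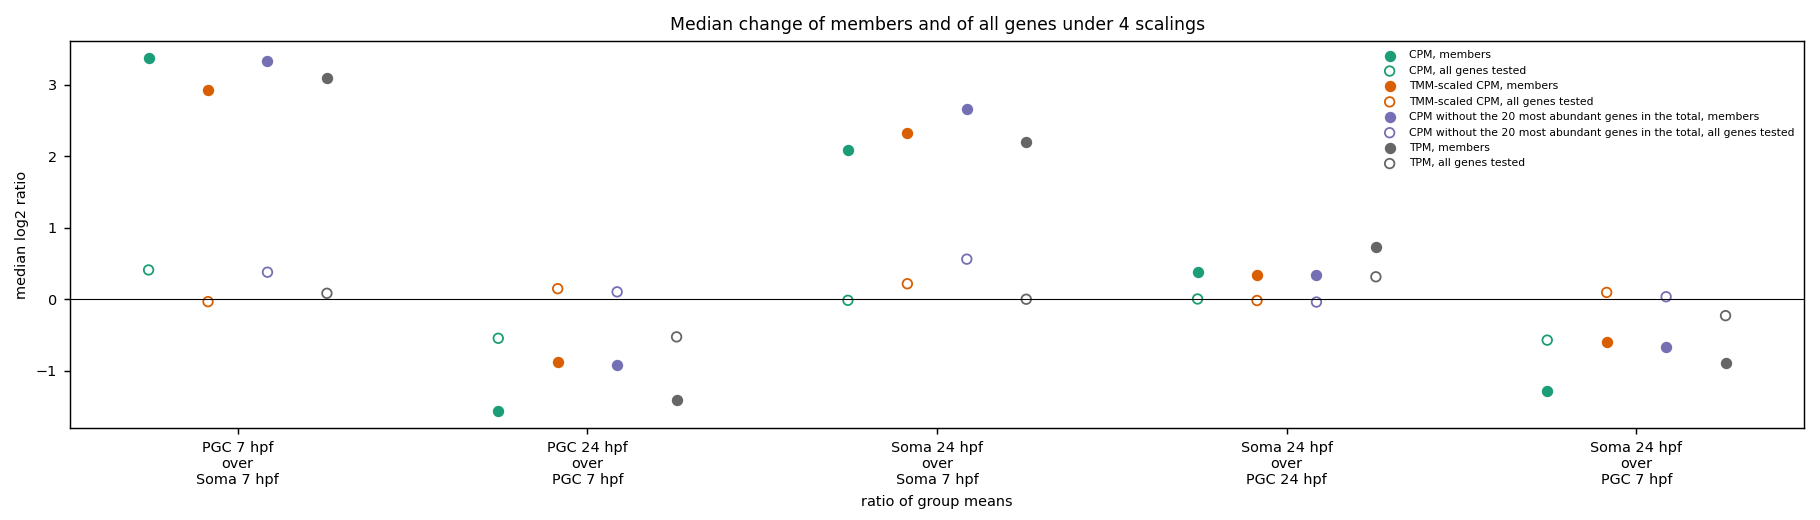
Median log2 ratio of group means (vertical axis) for the 42 members (filled) and for all genes tested (open) in 5 ratios (horizontal axis) under 4 scalings (colours). In PGCs from 7 to 24 hpf the members' median moves from -1.56 with CPM to -0.88 with TMM scaling. Its distance from the median of all genes is -1.01 with CPM, -1.03 with TMM scaling and -0.88 with TPM.

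The count model fitted across all genes, edgeR's quasi-likelihood test with an adjusted p under 0.05 and a log2 change of at least 1.5, gave the following calls, from which nothing is read because the rule used the same contrasts. Between PGCs and soma at 7 hpf, 35 of 42 members were called higher in PGCs, against 3.61% of all genes. The median log2 change was 2.90 for the members and 0.00 for all genes. The number of members called was lower when either early PGC library was left out, and so was the number of all genes called. In soma, 40 members were called higher at 24 than at 7 hpf, all but KLF5 and TRIP4, against 23.2% of all genes, and 0 were called lower, against 9.89%. The median log2 change was 2.32, and 0.46 over all genes. In PGCs only 5 were called lower at 24 than at 7 hpf, against 6.94% of all genes, and 0 higher, against 19.5%. The 5 were zgc:100868, zgc:101663, cldn8.2, ABCB10 and sh3gl1a. The median log2 change was -0.88, and 0.36 over all genes. Fewer members were called without either PGC 24 hpf library or without PGC 7 hpf replicate 1. The number of all genes called in either direction was lower there too. The same 5 were called higher in soma, and 8 genes in the whole table were called in both directions at once.

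Between PGCs and soma at 24 hpf edgeR called 0 members, against 0.0302% of all genes higher and 0% lower in PGCs. Below an unadjusted p of 0.05, 2 members were lower, against 1.06% of all genes. DESeq2 called 0 members, against 0.427% of all genes it tested in either direction. The median log2 change of PGCs against soma was -0.34 for the members and 0.02 for all genes. For the interaction of cell type and stage edgeR called 0 members, against 0.00503% of all genes lower, although 42 of 42 were lower below an unadjusted p of 0.05, against 7.95% of all genes, and their median was -3.36, against 0.09 over all genes. DESeq2 called 35 of the 42, against 4.17% of all genes it tested in either direction. edgeR without the filter on low counts called 41, against 3.804%, and edgeR without soma 7 hpf replicate 1 called 5, against 0.126%.

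Markers of other cell types differed between the libraries alongside the members. The germ cell list, of which 11 of 12 genes could be matched, summed to 6876 and 9183 CPM in early PGCs, 169 and 80.1 CPM in early soma, 622 and 424 CPM in late PGCs and 7.55 and 11.97 CPM in late soma, with no gene at 0 in a group. The germ cell sum was thus higher in PGCs than in soma of the same stage, which does not measure how much somatic RNA the PGC libraries held. The study made its own estimate of the purity of its sorted PGCs, and reported strong enrichment of germline markers over soma. In soma the germ cell sum moved in the opposite direction to the members. The epidermal list (8 of 8) summed to 12542 and 6016 CPM in early PGCs and 766 and 2530 CPM in early soma. In late PGCs and late soma the epidermal sums were 3498 and 6743 CPM and 8784 and 7067 CPM, with 1 gene, cldni, at 0 at 7 hpf. The epidermal keratin genes krt4, krt5, krt8 and krt17 were 5.10 to 6.35 times higher in PGCs than in soma at 7 hpf, so keratin RNA and the members were both higher in the early PGC libraries. Not all of the list moved this way: TP63, a transcription factor of the basal epidermis, stood at 5.67 and 16.3 CPM in early PGCs and at 30.0 and 50.7 CPM in early soma. Across the 8 libraries the log2 level of the members had a median Pearson correlation of 0.79 with the log2 epidermal sum and of 0.43 with the germ cell sum. With the muscle sum given below it was 0.06. These are values that share their libraries and that the rule shaped, and the part of epidermal RNA in the members' levels was not tested.

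The muscle list (5 of 10) was at or below 16.98 CPM in the 7 hpf libraries, with 1 gene at 0 in both cell types. It reached 5864 and 9514 CPM in late PGCs and 1390 and 7765 CPM in late soma. The neuronal list (5 of 10) reached 242 and 204 CPM in late PGCs and 228 and 235 CPM in late soma, and at 7 hpf 3 of its genes were at 0 in each cell type and the sum was at most 10.3 CPM. Muscle and neuronal RNA in the late PGC libraries was therefore in or above the range of late soma, apart from 1 PGC value of the neuronal list just below it. The blood and vessel list (8 of 11) was lower in late PGCs, at 131 and 102 CPM, than in late soma, at 352 and 248 CPM, and was at most 2.22 CPM at 7 hpf. The part of such RNA in the close late levels of the members was not tested. The yolk and endoderm list (7 of 7) had a lower sum in early PGCs, at 1358 and 1632 CPM, than in early soma, at 3125 and 3423 CPM, with 1 gene, TTR, at 0 in every group. This difference rested on apoeb, at 1131 and 1377 CPM in early PGCs and 2917 and 3209 CPM in early soma. The other expressed genes overlapped, except afp4 (ENSDARG00000041490), which was higher in early PGCs. At 24 hpf the sum of the list stood at 698 and 1102 CPM in PGCs and at 1636 and 363 CPM in soma, so the soma replicates were far apart. The notochord list (3 of 6) lay between 265 and 486 CPM at 7 hpf and between 174 and 243 CPM at 24 hpf. The eye and pigment list (5 of 8) lay between 2.07 and 13.9 CPM at 7 hpf, with 1 gene at 0, and between 20.3 and 56.0 CPM at 24 hpf, with overlapping cell types at both stages.

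**Figure D5:**
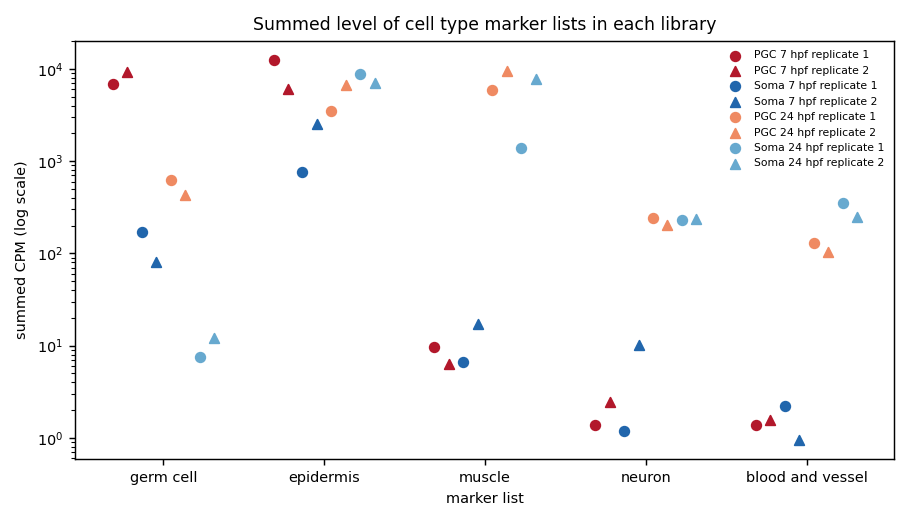
Summed CPM (vertical axis, log scale) of 5 cell type marker lists (horizontal axis) in each library, with colours for the groups and circles and triangles for replicates 1 and 2. The epidermal list is higher in both early PGC libraries than in both early soma libraries (12542 and 6016 against 766 and 2530 CPM), and the muscle list reaches 5864 and 9514 CPM in late PGCs.

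The keratins fell in the 7 hpf libraries in the order PGC replicate 1, PGC replicate 2, soma replicate 2, soma replicate 1. The same order held for 14 of 42 members (33.3%), among them cldn8.2, MYO1E, KLF5, serpinb14, ERBB3 and zgc:100868, against 6.1% of all genes tested. It held for 28.8% of the 590 other genes that met the conditions at 7 hpf, so the share among the members lay near that of genes chosen in the same way. The order with both replicate pairs exchanged held for 15 members (35.7%), against 11% of all genes and 33.7% of the other 590. At 24 hpf soma replicate 1 was above replicate 2 in 36 of 42 members (85.7%), against 66.3% of all genes and 68.5% of the other 590. Soma 24 hpf replicate 1 was also the library with the higher yolk and endoderm sum (1636 against 363 CPM) and the lower muscle sum (1390 against 7765 CPM). The muscle sum rested mostly on actc1b (1191 against 6804 CPM), while MYOD1, MYOG and MYF5 were higher in this library. Its epidermal (8784 against 7067 CPM) and blood and vessel sums (352 against 248 CPM) were higher too. The germ cell, neuronal, notochord, and eye and pigment sums were lower in it. The 20 most abundant genes took 35.7% of its counts, against 44.4% in replicate 2. The part of these differences in the members' levels was not tested. Without soma 24 hpf replicate 1 the rule found 26 genes, of which 24 were among the 42.

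The members belonged to none of the 13 gene lists examined, which covered germ cells and piRNAs, somatic tissues, cilia, migration and the cell cycle. The lists matched between 10 and 48 genes each and only 42 of 34381 genes met the rule, so nothing is read from this absence. Of the 28 listed germ cell and piRNA genes that could be matched, 15 met the conditions at 7 hpf, against 632 of all 34381 genes, but 0 met the whole rule. Among the somatic lists 3 of 16 epidermal genes and 1 of 18 blood and vessel genes met the early conditions. So did 1 of 12 genes of the migration and chemokine list, and again 0 met the whole rule. The early conditions on their own held for 632 genes, of which 423 also fell enough in PGCs, 205 of these reached 7 CPM in late soma and 42 rose enough in soma. The last condition, on the late ratio, removed 0.

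Several members lay close to a threshold. The lowest early PGC library among the members was 10.1 CPM in fcho1, and GALNT12 just missed it at 9.003 CPM. In the early fold KLF5 stood inside at 3.33 and SH3D19 outside at 2.99. MYO1E had a late PGC mean of 48.4% of the early mean, while thap7 had 50.1%. In late soma PRKCD had 7.43 CPM and cd68 6.90 CPM, and in the soma rise ERBB3 stood at 3.02 times and zgc:92140 at 2.94 times. As many as 172 genes missed only the limit on the fall in PGCs and 163 missed only the rise in soma, counted at any distance from the limit.

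Effective length, the part of a gene's transcripts that can give fragments averaged over its isoforms, was the only readout that the rule did not use. The members had a median mean effective length of 2659 bases, from 1162 for CA5B to 7029 for myo9b. In 29 of 42 (69.0%) it was longer than the median of 1930 bases over the 16223 genes whose mean count was 20 or more, as in 62.9% of the other 590 genes. A total of 27 members had at least 20 counts in every library. In 6 of these the length varied by no more than 1 base, and the other 21 could be tested with limma, among 5866 genes. With an adjusted p under 0.05 and a log2 change of at least 0.2, limma called 0 of 21 in each of the 5 contrasts. Of all genes it called 0.0511% between the stages in PGCs and likewise 0.0511% in soma, 0.0682% between the cell types at 24 hpf and 0% in the other contrasts. Below an unadjusted p of 0.05 there was 1 member for PGCs against soma at 7 hpf, against 9.48% of all genes. There were 0 between the stages in PGCs (7.94% of all genes), 2 between the stages in soma (9.87%), 1 for PGCs against soma at 24 hpf (4.30%) and 2 for the interaction (5.27%). The shares among the 21 members were between 0% and 9.52%.

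No length difference of a member passed with all 8 libraries. The lowest unadjusted limma p was 0.0180, for the interaction in BMI1 (ENSDARG00000006010). Its log2 change was -0.345 ± 0.0972 (SE), with a limma adjusted p of 0.771. For zgc:100868 the effective lengths were 2643 and 2612 bases in early PGCs and 2308 and 2108 bases in early soma. This was a log2 difference of 0.25 ± 0.08 (SE, n = 2 against 2 libraries) with a limma adjusted p of 0.401. For si:ch211-11k18.4 they were 1833 bases in both late PGC libraries and 1319 and 1334 bases in late soma, a log2 difference of 0.47 ± 0.13 with a limma adjusted p of 1. ERBB3 was shortest in soma 7 hpf replicate 1, at 1162 bases, and between 3840 and 7105 bases in the other libraries, so its groups were too spread to compare. Without soma 24 hpf replicate 1, limma called myo9b shorter in late soma than in both early soma and late PGCs (adjusted p of 0.0236 and 0.0382), which then rested on a single library of 6052 bases against 7154 in the one left out.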

How the data were processed

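Expected counts, TPM and effective lengths per gene were used as deposited. According to the study's methods, the authors trimmed reads with Trim Galore, aligned them to danRer10 with STAR and quantified them with RSEM. The authors' expected counts are RSEM estimates, fractional where reads are shared, and were rounded before testing. The deposited TPM values are abundances per length, and the deposited effective lengths are in bases. The annotation release and the use of strand in counting are not given in the sources used here, so overlapping and antisense genes are uncertain.

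CPM was computed from each column total, and the rule was applied to it. edgeR 4.0.16 (filterByExpr, TMM, quasi-likelihood) fitted all 8 libraries with 4 group means in R 4.3.3, over 19885 genes. limma 3.58.1 tested log2 effective length after removing each library's median shift (-22.1 to 17.1 bases), where lengths varied by more than 1 base. Adjusted p-values are Benjamini-Hochberg. On simulated counts for PGCs against soma at 7 hpf, edgeR recovered 55% of 200 genes changed by a log2 fold of 3 among 19885, and limma recovered 67% of 200 lengths changed by a log2 of 1 among 5866. Alternatives were RLE size factors, DESeq2 1.42.0, no count filter, a replicate block, other scalings and thresholds, and leaving out each library.

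Symbols came from a table of gene IDs, which matched 26790 of 34381 IDs and 41 of the 42 members, with 24 written as in mammals. Genes named were the 10 highest in early PGCs, in late soma and in the soma rise, those called in length or in both directions, and those next to each threshold. Others named for their roles, and the role groups, were chosen after their values were seen. The members and lists were chosen with earlier results of these data known. Marker lists were matched by exact symbol, so paralogs with suffixed names may be missed. The values of 1 member are not reported here by name, and it is not drawn.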

Additional observations from a re-analysis of the deposited data

Results flagged for a closer look

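In 41 members both PGC libraries were lower and both soma libraries higher at 24 than at 7 hpf in CPM, which are the directions that the rule set for the group means. The remaining gene was MYO1E, whose second PGC library at 7 hpf (18.4 CPM) lay below the first at 24 hpf (19.0 CPM). Over all 19885 genes tested the PGC order alone held in 42% and the soma order alone in 40.3%, and the joint share was not computed. On the TMM scale the PGC order held in 32 of 42 members, against 29.7% of all genes. The joint order follows from the rule that chose the genes, and the difference between the cell types was not tested independently of it. With 2 libraries per group, single libraries could not be tested for standing apart from their group.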

How the results depend on the processing

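The number of genes found by the rule moved most. It was 42 as stated, 8 with TPM in place of CPM, 16 with TMM scaling, 7 with thresholds 1.5 times stricter and 342 with thresholds 1.5 times looser, and 26 to 106 when a library was left out. It was 106 without soma 7 hpf replicate 2, of which 35 were among the 42. The 8 genes with TPM included 0 of the 42, since the thresholds then applied to values per length. The 16 with TMM scaling included 12 of the 42, and the 53 without the 20 most abundant genes included 15. On the TMM scale, chosen after seeing the data, both late PGC libraries were above both late soma libraries in 0 members in place of 1. Over all genes this order held in 19.2% in place of 19.1%. Both early PGC libraries were above both late soma libraries in 22 members in place of 39, and in 30.4% of all genes in place of 41.8%. Without the most abundant genes the latter order held in 24 members. The share of all genes was not computed there, so the fall from 39 is not read as particular to the members.

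Of the edgeR calls, the 5 members lower in PGCs at 24 hpf became 3 with RLE size factors and 0 to 6 when a library was left out. The 35 higher in early PGCs ranged from 10 to 34, the 40 higher in soma from 29 to 37, and the 0 for the interaction from 0 to 5. The interaction reached 41 without the count filter and 35 with DESeq2. With RLE size factors 26.3% of all genes were called in either direction between the stages in PGCs, against 26.5% with TMM. For the left-out libraries that gave the fewest members in these 3 contrasts, fewer of all genes were called too. Where the interaction count rose, more of all genes were called. The ranges are therefore not read as particular to the members. The count between the cell types at 24 hpf was 0 throughout. In effective length the counts stayed at 0 in the settings tried, except 0 to 1 in soma between stages and between cell types at 24 hpf, where myo9b was called without soma 24 hpf replicate 1. With at least 100 counts in every library no member could be tested. The count of promoter motifs was not run. Leaving out a library assumes that the lone library left varies like the other groups.

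The replicate numbers come from the titles, which do not say what they mark. Over all genes tested, differences between replicates 1 and 2 correlated between -0.0148 and 0.204 for pairs of groups, so the numbers were not taken as a pairing. Over the 42 members these correlations ran from -0.455 to 0.440, the highest being between PGCs and soma at 24 hpf. With a replicate block, 37 members were called higher in early PGCs, against 4.79% of all genes in either direction. In late PGCs 4 were called lower, against 24.6% in either direction, and in late soma 41 were called higher, against 30.7% in either direction. Shares by direction were not computed with the block. Without the block they were 3.61% higher in early PGCs, 6.94% lower in late PGCs and 23.2% higher in late soma. The block gave 0 members between the cell types at 24 hpf, against 0.0251%, and 0 for the interaction, against 0.00503%. In length it gave 0. Of 504 fold changes of members recomputed under 4 settings, 445 kept their direction and side of the threshold, 40 lost their call and 19 gained one. In 36 of the 40 this was with limma on log2(TPM + 1).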
